A study of Mus musculus with 6 samples.

Results

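The small leucine-rich proteoglycans are secreted matrix proteins, and the 9 genes Dcn, Lum, Bgn, Fmod, Ogn, Omd, Aspn, Prelp and Podn were followed here, out of 19057 genes named on the array. They were chosen by symbol: all 16 probes that the platform annotation gives to these genes were taken, of 45281 probes, on all 6 arrays. Of these, 14 probes of 8 genes were detected on at least 3 arrays (detection p under 0.05) and could be tested.

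Rosiglitazone, a drug that activates the nuclear receptor PPARgamma, was mixed into normal chow at 0.0075% for 2 months in 3 cohorts, and 3 untreated cohorts ate normal chow. All mice, adults of 2 to 6 months, carried PPARgamma-tTA and tetO-H2B-GFP, so that a transactivator under PPARgamma control switches on a fluorescent histone. GFP-positive stromal-vascular cells were sorted after collagenase digestion (2 hours, 37 degrees C) of inguinal, interscapular and gonadal white fat. A cohort pooled 3 to 4 mice, so replicate errors describe pools and not single animals, and cells were selected on the same reporter in both groups.

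A small leucine-rich proteoglycan has a short protein core of leucine-rich repeats, which many members decorate with chondroitin, dermatan or keratan sulfate chains. The core proteins bind collagen fibrils and set their thickness and spacing, and several also hold growth factors such as TGF-beta. In white fat they are made mainly by stromal fibroblasts and adipocyte progenitors. By sequence the family falls into classes: Dcn, Bgn and Aspn form one, Fmod, Lum, Prelp and Omd another, and Ogn and Podn belong to separate ones.

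The sorted cells carried the markers of such stroma. All 8 adipose progenitor and fibroblast markers with a named probe were kept, out of 10 listed, and Pdgfra, a receptor that marks progenitors, measured 12.04 ± 0.23 log2 units with rosiglitazone and 11.80 ± 0.40 untreated (SD, n = 3 each). Markers of other cells were present too: 12 of 12 measured macrophage markers and 8 of 8 endothelial markers were kept, while of 3 lymphocyte markers none was kept, with Cd3e and Cd3g detected on no array. Summed over all probes, the arrays gave 9478692 to 14831319 intensity units, and 34.2% to 38.4% of probes were detected.

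The promoters of the members whose values differed most between the groups, Omd, Ogn and Podn, are shown first. Each run is the 250 bases before a RefSeq transcription start (GRCm38.p6), 5′ to 3′ on the strand of the gene, with matches to AGGTCA or TATAAA on either strand in capitals. The Omd window is chr13:49582212-49582461 and the Ogn window chr13:49607765-49608014, both on the plus strand; Podn has 2 listed starts on the minus strand, with windows chr4:108031955-108032204 (start 1) and chr4:108030987-108031236 (start 2).
Omd: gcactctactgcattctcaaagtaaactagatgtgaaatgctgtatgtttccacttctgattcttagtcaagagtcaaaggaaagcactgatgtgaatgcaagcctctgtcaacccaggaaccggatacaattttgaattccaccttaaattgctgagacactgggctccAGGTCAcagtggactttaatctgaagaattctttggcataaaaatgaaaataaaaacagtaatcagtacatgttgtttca
Ogn: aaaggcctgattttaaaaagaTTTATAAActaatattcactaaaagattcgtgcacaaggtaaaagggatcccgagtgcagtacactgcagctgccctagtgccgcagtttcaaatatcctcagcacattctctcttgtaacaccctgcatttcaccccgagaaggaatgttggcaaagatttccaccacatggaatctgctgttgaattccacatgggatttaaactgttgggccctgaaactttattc
Podn start 1: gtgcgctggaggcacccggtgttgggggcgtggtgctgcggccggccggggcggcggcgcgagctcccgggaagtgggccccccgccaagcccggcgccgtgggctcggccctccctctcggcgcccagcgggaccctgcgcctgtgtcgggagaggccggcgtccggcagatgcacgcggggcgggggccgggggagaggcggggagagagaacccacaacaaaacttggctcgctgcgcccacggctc
Podn start 2: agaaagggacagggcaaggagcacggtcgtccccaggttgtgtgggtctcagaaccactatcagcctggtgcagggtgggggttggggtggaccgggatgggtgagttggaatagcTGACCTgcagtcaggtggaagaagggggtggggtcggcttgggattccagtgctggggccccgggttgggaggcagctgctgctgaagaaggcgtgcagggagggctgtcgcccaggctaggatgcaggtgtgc

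The nuclear receptor core motif AGGTCA matched in the windows of 2 of the 7 members that have one, Omd and the second start of Podn, against 14.0% of all 32851 windows. A direct repeat of that core with a single base between the copies, the arrangement PPARgamma binds with its partner RXR, matched in none of the 7, against 0.0335% of all windows. TATAAA matched in Aspn and Ogn (12.4% of all windows), in Ogn as 2 overlapping matches on opposite strands, and the AP-1 motif TGANTCA in none (6.75%). Base composition varied widely across the family, from 30.0% G and C in the Aspn window to 78.0% at the first Podn start. A member was counted if any of its windows matched, and Podn has 2, whereas the background percentages are per window. The motif hits are letter matches in one stretch and describe no binding.

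None of the 14 tested probes passed an adjusted p of 0.05 in limma, where 2.38% of all 16442 kept probes did (0.493% higher and 1.89% lower with rosiglitazone); at an unadjusted p under 0.05 there was 1, the Podn probe, against 12.1% of kept probes. By brightest probe, 4 of 8 genes had a positive and 4 a negative log2 change, with a median of -0.08 beside 0.04 over all 9760 genes. The changes ran from -0.75 for Podn (1.69-fold lower) to 0.45 for Omd (1.36-fold higher). The smallest change called on any probe was 1.66-fold, and Podn exceeded that size but was not called. Groups did not overlap for 3 of 14 probes, 2 higher and 1 lower with rosiglitazone, against 17.2% of all kept probes (9.38% higher and 7.83% lower).

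**Figure D1:**
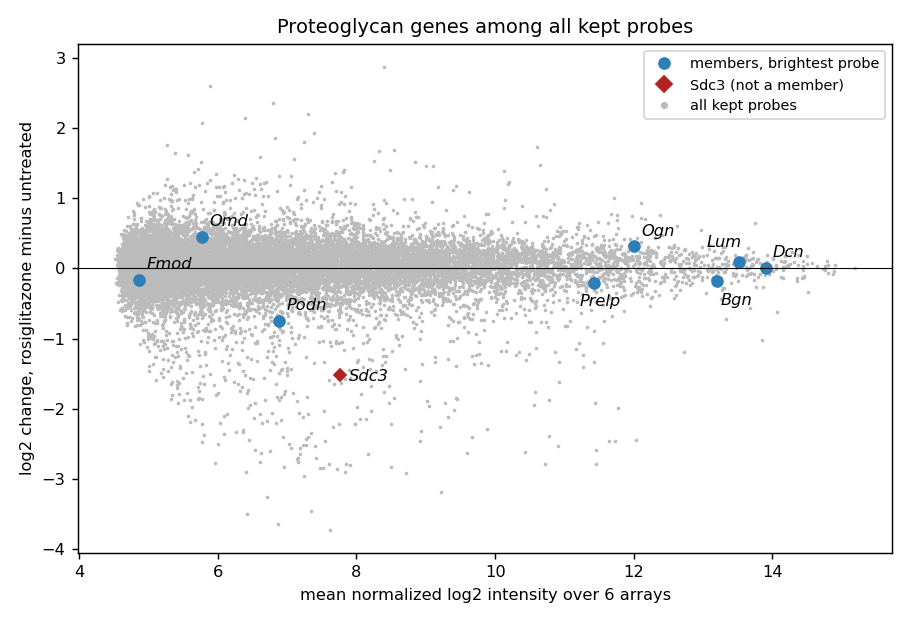
Log2 change (rosiglitazone minus untreated) against mean normalized log2 intensity over 6 arrays for all 16442 kept probes (grey), the brightest probe of each of 8 proteoglycan genes (blue circles) and Sdc3 (red diamond). The members lie between -0.75 and 0.45, and Sdc3 lies at -1.52.

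Decorin, encoded by Dcn, coats collagen fibrils and binds TGF-beta, and it gave nearly the same signal in both groups. Its brightest probe measured 13.62, 13.98 and 14.11 log2 units on the rosiglitazone arrays, against 13.98, 13.90 and 13.82 on the untreated arrays. The ranges overlapped, and the untreated values lay inside those of the rosiglitazone arrays. The log2 change was 0.00 with a 95% confidence interval of -0.40 to 0.41 (adjusted p = 0.996), which leaves room for a change of up to 1.33-fold upward or 1.32-fold downward. Of 3 further Dcn probes, 2 had log2 changes of 0.14 and 0.15. The other, designed to the clone sequence AK031456, had -0.32, with adjusted p = 0.64, and -0.12 without untreated replicate 3; over the 6 arrays it correlated with the brightest probe at r = 0.13, against 0.87 and 0.80 for the other two.

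Biglycan (Bgn), the closest relative of decorin, binds collagen and, in free form, Toll-like receptors of macrophages. It measured 12.92, 12.94 and 13.48 log2 units with rosiglitazone, against 13.32, 13.18 and 13.38 untreated. The groups overlapped because rosiglitazone replicate 3 was above every untreated array, while the other rosiglitazone arrays were below them all. The log2 change was -0.18 (interval -0.62 to 0.26, adjusted p = 0.80). It was -0.36 without rosiglitazone replicate 3, -0.08 without rosiglitazone replicate 1 and -0.10 without rosiglitazone replicate 2. The Toll-like receptor genes did not pass either: Tlr2 had -0.69 (adjusted p = 0.45) and Tlr4 had -0.09 (adjusted p = 0.89).

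Aspn encodes asporin, a collagen-binding member with an aspartate-rich end. Its probe gave raw intensities of 88.8, 87.3 and 82.7 units with rosiglitazone and 91.5, 88.1 and 97.8 untreated. It was detected on 0 of 6 arrays, with detection p from 0.20 to 0.95, so no change was computed, and whether the gene was transcribed cannot be read from it.

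Lumican (Lum), which spaces collagen fibrils and is best known from the transparent cornea, also differed by less than its spread. Its brightest probe measured 13.55, 13.49 and 13.64 log2 units with rosiglitazone, against 13.49, 13.79 and 13.12 untreated. Untreated arrays held both the highest and the lowest value. The log2 change was 0.10 (interval -0.35 to 0.54, adjusted p = 0.90), and the second Lum probe had 0.13 (adjusted p = 0.88).

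Prelp, whose product has an end rich in proline and arginine and anchors basement membranes to collagen, measured 11.07, 11.22 and 11.68 log2 units with rosiglitazone. The untreated arrays measured 11.44, 11.43 and 11.70. Like Bgn, it was below every untreated array on rosiglitazone replicates 1 and 2 but not on replicate 3. Its log2 change was -0.20 (interval -0.65 to 0.24, adjusted p = 0.77). It was -0.38 without rosiglitazone replicate 3, -0.08 without rosiglitazone replicate 1 and -0.11 without untreated replicate 3.

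Fibromodulin (Fmod), which guides collagen cross-linking, lay near background. Its tested probe measured 4.47, 4.87 and 5.01 log2 units with rosiglitazone, against 4.98, 4.89 and 4.99 untreated. It was detected on 2 of 3 rosiglitazone and 3 of 3 untreated arrays, and the groups overlapped (log2 change -0.17, interval -0.58 to 0.25, adjusted p = 0.80). The change was -0.010 without rosiglitazone replicate 1, -0.27 without rosiglitazone replicate 3 and -0.05 without background correction. The second Fmod probe was detected on 0 of 6 arrays.

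Omd encodes osteomodulin, a member first known from bone. It measured 5.68, 5.77 and 6.52 log2 units with rosiglitazone, against 5.57, 5.46 and 5.61 untreated. After normalization every rosiglitazone array was above every untreated one, but rosiglitazone replicate 3 stood well above the others of its group. The raw intensities overlapped, at 111 to 165 units with rosiglitazone and 103 to 148 untreated. The log2 change was 0.45 (interval -0.07 to 0.96, adjusted p = 0.50), and it was 0.18 without rosiglitazone replicate 3. It was 0.20 both without background correction and on the values the authors normalized.

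Osteoglycin, also called mimecan and encoded by Ogn, takes part in collagen fibril assembly, and its 3 probes did not move together. The brightest measured 11.92, 12.05 and 12.52 log2 units with rosiglitazone, against 11.96, 11.56 and 12.03 untreated, a log2 change of 0.31 (interval -0.16 to 0.79, adjusted p = 0.64). It was 0.14 without rosiglitazone replicate 3 and 0.17 without untreated replicate 2, and averaging the 3 probes gave 0.08. These groups overlapped. Probe ILMN_2859619 measured 7.62, 7.60 and 7.66 with rosiglitazone, against 7.25, 7.33 and 7.27 untreated. Here the groups did not overlap after normalization and the spread was small. The raw intensities overlapped, at 223 to 301 units with rosiglitazone and 175 to 290 untreated. The log2 change was 0.35 (interval -0.0025 to 0.70, adjusted p = 0.42). It was 0.33 without rosiglitazone replicate 3, and 0.24 both without background correction and on the values the authors normalized. Probe ILMN_2740622 went the other way: it measured 6.19, 6.09 and 5.29 with rosiglitazone, against 6.80, 6.04 and 5.99 untreated, a log2 change of -0.42 (adjusted p = 0.64). Its change was -0.14 without rosiglitazone replicate 3 and -0.15 without untreated replicate 1. Over the 6 arrays it correlated with the brightest probe at r = -0.59.

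Podocan, encoded by Podn and first described in glomerular podocytes, restrains the growth of vascular smooth muscle cells in mice. Its difference was the largest among the 14 tested probes. Its probe measured 6.42, 6.34 and 6.75 log2 units with rosiglitazone, against 6.93, 7.28 and 7.57 untreated. After normalization every rosiglitazone array was below every untreated one. The raw intensities were low and overlapped, at 136 to 183 units with rosiglitazone and 172 to 338 untreated. The lowest untreated value came from replicate 2, the array with the lowest total intensity. The log2 change was -0.75 (interval -1.22 to -0.29, unadjusted p = 0.0047), and it did not pass after adjustment over all kept probes (limma adjusted p = 0.13). The change was negative in all 16 alternative fits, from -0.91 to -0.46, with adjusted p from 0.058 to 0.71. Without background correction it was -0.46, and the authors' normalized values gave -0.47.

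Markers of mural cells, the pericytes and smooth muscle of vessel walls, are given beside Podn. Of 6 kept mural markers out of 8 measured, 2 fell (Notch3 and Mcam) and 6 had a negative change, with a median log2 change of -0.78; their mean was 6.81, 7.05 and 7.19 with rosiglitazone and 7.68, 7.69 and 8.04 untreated. Their summed normalized intensity, taken back to a linear scale, was 1446 to 2339 units with rosiglitazone and 1797 to 4766 untreated. Such a sum weighs bright markers most. Acta2, the brightest mural marker, measured 10.03, 10.17 and 10.87 log2 units with rosiglitazone and 9.85, 10.66 and 11.95 untreated. It did not pass (adjusted p = 0.76 in limma). All 12 measured macrophage markers also fell (2.38 log2 units in the median). Their normalized sums were 2468 to 6076 units with rosiglitazone and 17443 to 21839 untreated. Of 8 progenitor and fibroblast markers 0 passed (median log2 change 0.25), and of 8 endothelial markers 0 passed (median -0.23). The part of any of these cells in the Podn values was not tested. In sorted bulk cells fewer cells of a type and less RNA per cell cannot be told apart.

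**Figure D2:**
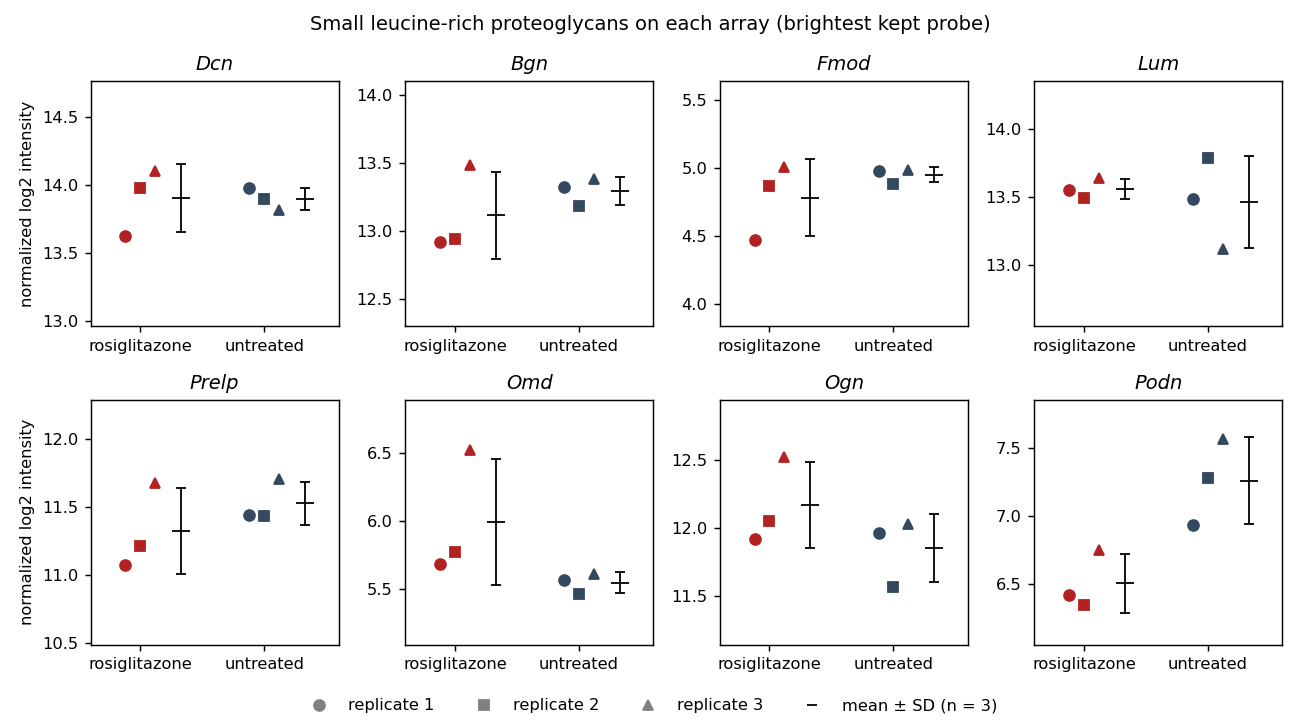
Normalized log2 intensity (vertical axis, each panel spanning 1.8 units) of the brightest kept probe of 8 proteoglycan genes on the rosiglitazone arrays (red, left) and untreated arrays (dark blue, right); marker shapes give the replicate and black bars the mean ± SD (n = 3). Podn and Omd have groups that do not overlap, and rosiglitazone replicate 3 is the highest rosiglitazone array in all 8 panels.

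**Figure D3:**
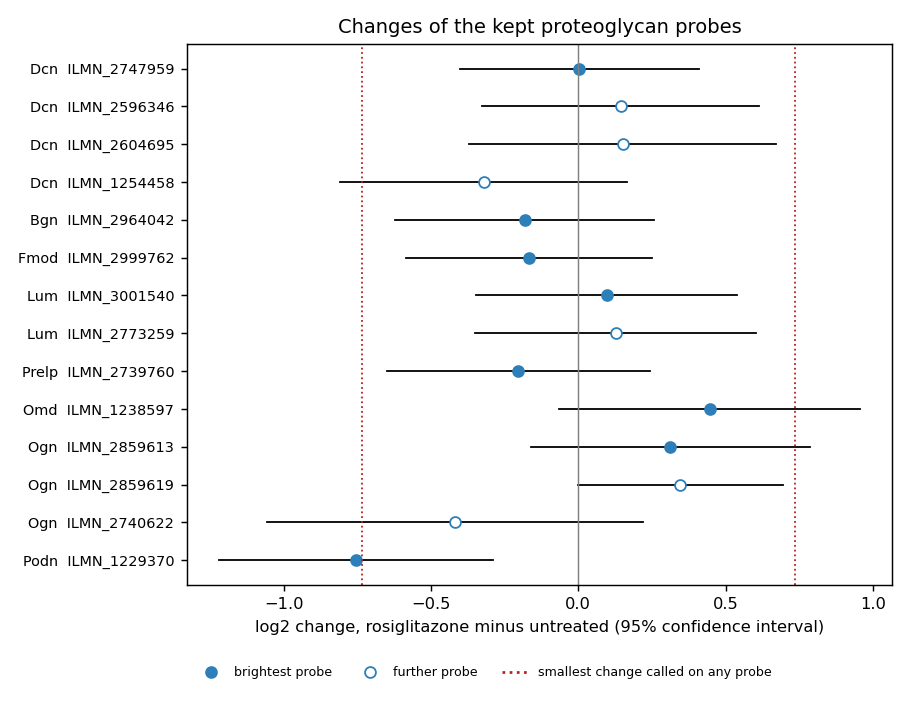
Log2 change, rosiglitazone minus untreated, of the 14 kept probes with 95% confidence intervals; filled circles are the brightest probe of a gene, open circles further probes, and dotted lines the smallest change called on any probe (1.66-fold). The interval of Podn lies below 0, and the Ogn and Dcn probes fall on both sides of 0.

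Most member probes had the same highest array among the rosiglitazone arrays. Rosiglitazone replicate 3 was the highest array of its group for 11 of the 14 tested probes, where this held for 36.9% of all kept probes. The exceptions were further probes of Dcn (ILMN_1254458), Lum (ILMN_2773259) and Ogn (ILMN_2740622), the last of which was lowest there; by the brightest probe of each gene it was 8 of 8. Rosiglitazone replicate 1 was the lowest for 10 of 14 probes, where this held for 36.1% of kept probes. Among untreated arrays replicate 3 was the highest for 7 of 14 probes, against 35.1% of kept probes. It was the lowest for 5, against 32.9% of kept probes, with the brightest probes of Dcn and Lum among them. Untreated replicate 2 was the lowest for 7 of 14 probes, against 36.3% of kept probes. Taken over deviations of the brightest probes from each group's mean, Bgn and Prelp correlated at r = 0.94 and Bgn and Omd at r = 0.99, whereas Lum and Bgn gave r = -0.10. Bgn and Omd were the pair with the highest value. Over the 6 arrays without centring, the same pairs gave r = 0.95, 0.42 and -0.19. Rosiglitazone replicate 3 had the largest deviation for both Bgn (0.37) and Omd (0.53). These are descriptions over 6 arrays that share their normalization.

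The endothelial and mural markers, by the mean of each list, were also highest on rosiglitazone replicate 3 and lowest on rosiglitazone replicate 1 within that group. Not every marker followed its list. Mural Des (7.21, 7.45 and 6.71 with rosiglitazone) and endothelial Kdr (4.79, 4.84 and 4.37) were lowest on replicate 3. Mural Rgs5 (6.48, 7.45 and 7.10) was highest on replicate 2. Pecam1, Esam, Cldn5, Mcam and Myh11 were lowest on replicate 2. The endothelial markers had means of 7.73, 7.78 and 8.83 log2 units, beside 8.33, 8.16 and 8.48 on the untreated arrays. Their summed normalized intensity was 2585 to 6707 units with rosiglitazone and 3578 to 4714 untreated, and 0 of 8 passed the threshold. Mural means were 6.81, 7.05 and 7.19 with rosiglitazone and 7.68, 7.69 and 8.04 untreated. Macrophage markers were lowest on rosiglitazone replicate 3, with means of 7.52, 7.62 and 6.47 with rosiglitazone and 9.86, 9.31 and 9.66 untreated. The 2 kept mesothelial markers were lowest there too, with means of 6.93, 6.45 and 5.30 with rosiglitazone and 5.66, 5.52 and 5.64 untreated. The mean of the progenitor and fibroblast list was 10.88, 10.84 and 10.81 with rosiglitazone and 10.62, 10.84 and 10.66 untreated (0 of 8 past the threshold). Within the rosiglitazone group this mean was thus highest on replicate 1 and lowest on replicate 3, by a small margin. Single markers differed in their spread with rosiglitazone. The SD was 0.03 for Mfap5 and 0.07 for Cd34 and Thy1, but 0.44 for Col1a1 and 0.59 for Pi16, the largest of the list. Pi16 measured 12.30, 11.92 and 11.14 with rosiglitazone, and Col1a1, a chain of type I collagen, 11.48, 11.38 and 12.19; untreated arrays measured 11.35, 11.58 and 11.08 for Pi16 and 11.18, 11.49 and 11.40 for Col1a1. The part of these cells in the members' order was not tested.

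**Figure D4:**
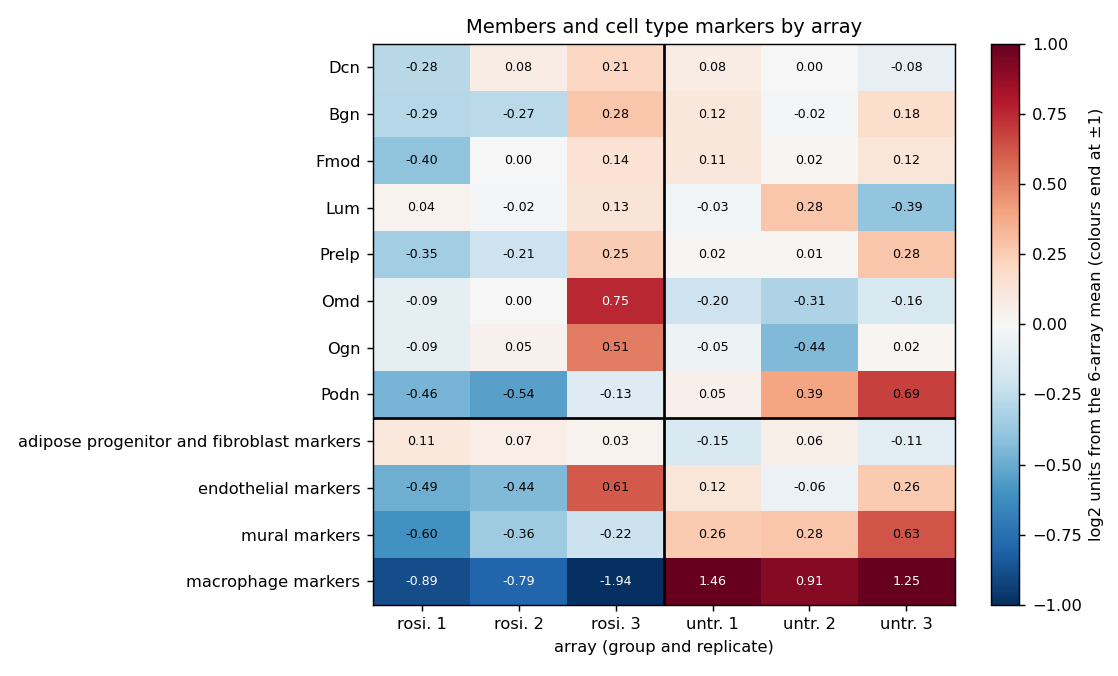
Deviation of each array (columns, rosiglitazone left of the line) from the 6-array mean, in log2 units, for 8 proteoglycan genes and for the mean of 4 cell type marker lists. Rosiglitazone replicate 3 is above the mean for 7 of the 8 genes, for endothelial markers and slightly for progenitor and fibroblast markers. For the progenitor and fibroblast markers it is the lowest rosiglitazone array. It is below the mean for mural and macrophage markers. Macrophage markers run past the ends of the colour scale on rosiglitazone replicate 3 and on untreated replicates 1 and 3.

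Genes whose level followed a member over the 6 arrays were looked up for the members that varied more than the median kept probe, which were Omd, Ogn and Podn. Genes with clone or predicted names were left out of the ranking. The 3 genes with the most similar pattern to Omd were Rnf169, Aqp7 and Cyp4b1 (Pearson r = 0.995, 0.993 and 0.992). For Ogn they were Pop5, Clk2 and Zfp180 (r = 0.996, 0.990 and 0.989), and for Podn Ephx3, Ppp3ca and Ralgps2 (r = 0.991, 0.988 and 0.986). With 6 arrays and 9760 genes before that exclusion, such values are a description and carry no test.

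Several members sit side by side in the genome. In the RefSeq table of GRCm38.p6, Ecm2, Aspn, Omd and Ogn follow each other, Dcn and Lum are followed by Kera and Epyc, and Optc, Prelp and Fmod are neighbours. Ecm2, a matrix protein gene next to Aspn, measured 4.89, 4.96 and 4.65 log2 units with rosiglitazone and 5.30, 5.07 and 5.07 untreated. Its log2 change was -0.31 (adjusted p = 0.53), while those of its neighbours Omd and Ogn were 0.45 and 0.31. Kera, which encodes the corneal keratan sulfate proteoglycan keratocan, had a log2 change of -0.19, and Epyc, a growth plate cartilage member, -0.40, with adjusted p = 0.89 and 0.42. Ecm2, Kera and Epyc were each detected on 2 of 3 rosiglitazone arrays, and Optc was detected on no array.

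The same held for most other genes of the pathway: in 7 related lists, 0 genes rose and 2 of 79 fell, where 2.87% of all genes passed (0.594% rose and 2.27% fell). Among 4 measured further leucine-rich genes none passed, and the secreted leucine-rich repeat gene Lrrc17 had a log2 change of 0.44 (adjusted p = 0.35). Of 16 enzymes that build chondroitin and dermatan sulfate chains 0 passed (median 0.09); the sulfotransferase genes Chst11 and Chst15 were at 0.57 and 0.45 (adjusted p = 0.26 and 0.39). Chst11 was detected on 1 of 3 untreated arrays. Of 7 keratan sulfate enzymes 0 passed (median 0.08), with the sialyltransferase genes St3gal2 and St3gal1 at 0.56 and 0.27 (adjusted p = 0.55 and 0.70). Without untreated replicate 2 these were 0.15 and 0.10, and without untreated replicate 1 they were 0.89 and 0.45.

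The collagens that these proteoglycans bind did not pass either. Of 9 measured fibrillar and associated collagen genes 0 passed, with a median log2 change of -0.01; Col1a2, the partner chain of Col1a1, had 0.53 and Col5a3, of type V, 0.27 (adjusted p = 0.31 and 0.62). Of 12 matrix assembly enzymes 0 passed (median -0.07), and the lysyl hydroxylase gene Plod2 and the cross-linking oxidase gene Lox had 0.65 and 0.59 (adjusted p = 0.18 and 0.38). Bmp1, whose protease trims several of the core proteins, had -0.19 (adjusted p = 0.74).

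Proteoglycans of other families included a gene that fell. Sdc3, the cell-surface heparan sulfate proteoglycan syndecan-3, measured 6.96, 7.21 and 6.83 log2 units with rosiglitazone, against 8.67, 8.32 and 8.57 untreated. The groups were far apart relative to their spread, and the fall of 2.87-fold passed (log2 change -1.52, adjusted p = 0.0013) and did so in all 16 alternative fits. Srgn, the proteoglycan of blood cell granules, had a log2 change of -0.85 (adjusted p = 0.13), and the median over 15 measured genes was -0.02. The normalized macrophage marker sums of 2468 to 6076 units with rosiglitazone and 17443 to 21839 untreated stand beside these values, and their part in them was not tested.

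Among 16 measured receptors and ligands that the core proteins bind, 1 fell. Tgfb1, the growth factor bound by decorin, measured 5.77, 6.08 and 6.00 log2 units with rosiglitazone, against 6.73, 7.20 and 6.62 untreated. The groups did not overlap, and it was 1.86-fold lower (adjusted p = 0.048). The call was lost in 10 of 16 alternative fits, among them without each array in turn except untreated replicate 3, with adjusted p from 0.029 to 0.24. Without background correction the log2 change was -0.48. The ion channel gene P2rx4 had a log2 change of -0.62 (adjusted p = 0.16). Macrophage markers fell in the same arrays, and their part here was not tested.

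**Figure D5:**
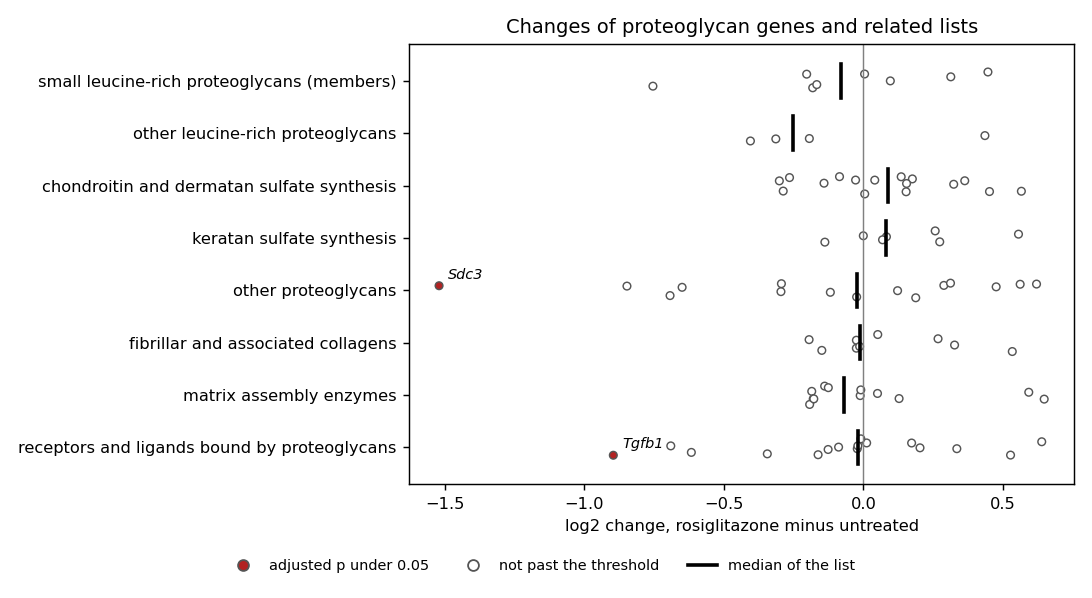
Log2 change, rosiglitazone minus untreated, of each measured gene (points) in the proteoglycan family and in 7 related lists (rows), with the median of each list as a black bar; filled points have an adjusted p under 0.05. Sdc3 at -1.52 and Tgfb1 at -0.90 are the filled points.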

How the data were processed

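Per the labels' protocols, total RNA of the sorted cells was turned into biotin-labelled cRNA for Illumina bead arrays. The authors deposited a table of non-normalized probe intensity, on a linear scale with no background subtracted, with a detection p-value beside each intensity. The deposited normalized intensity table has columns of nearly the same distribution; its method, and the scanner software, are not given in the sources used here. The deposited series table equalled it (largest difference 0).

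From the non-normalized intensities, background was corrected with normexp estimated from the detection p-values (offset 16), then arrays were quantile normalized and put on a log2 scale with limma 3.58.1 in R 4.3.3. Probes with detection p under 0.05 on at least 3 of 6 arrays were kept, which left 16442 probes. Groups were compared with lmFit and eBayes without covariates, and p-values were adjusted by Benjamini-Hochberg over all kept probes (threshold 0.05). Fold changes carry the offset, which understates those of dim probes. A gene in a list was represented by its brightest kept probe. Marker sums add the normalized values of these probes on a linear scale and are not raw intensities. The number of arrays limits the precision.

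Gene names came from the platform annotation (34885 probes with 1 symbol, 18 with several, 10378 unnamed here), and all 9 members matched a RefSeq gene by Entrez number. Promoter sequences are from RefSeq (GRCm38.p6), with 7 of 9 members matched. Named genes were all members, genes of the related lists past the threshold or with the 2 smallest p-values, and the 3 genes most similar in pattern. Outside that rule, Tlr2, Tlr4, Bmp1, Kera, Ecm2 and the cell type markers were named for their role after their values were seen. The members and lists were chosen with earlier results of these data known. Alternatives covered background, scaling, source table, filter, variance model, weights, the replicate number as a block, averaged probes and each array left out.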

Additional observations from a re-analysis of the deposited data

How the results depend on the processing

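No member probe passed an adjusted p of 0.05 in limma in any of the 16 alternative fits, with 1 or 2 at an unadjusted p under 0.05. Over all kept probes 392 passed, 81 higher and 311 lower with rosiglitazone; 260 did with median scaling (33 higher, 227 lower), 157 without the detection filter (26 and 131), where more probes are tested, and 220 to 446 with 1 array left out. Leaving out untreated replicate 1 gave 220 and untreated replicate 2 gave 258. In the related lists 2 genes passed; 1 did with an offset of 50, without background correction, with median scaling, on the authors' normalized table and without the filter, and 4 with array weights, which added Srgn and P2rx4 (adjusted p = 0.046 and 0.049). With 1 array left out it was 1 to 2; it was 1 without each array except untreated replicate 3.

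Changes near 0 turned sign. Dcn was -0.038 with median scaling, -0.0054 with averaged probes and -0.11 to 0.14 with 1 array left out. With 1 array left out, its further probes ILMN_2596346 and ILMN_2604695 ran from -0.022 to 0.31 and from -0.057 to 0.32, Lum from -0.073 to 0.26 and its probe ILMN_2773259 from -0.062 to 0.31. The cause was not tested. Without background correction several changes were smaller: Chst11 was 0.19, Epyc -0.13, Srgn -0.40, St3gal2 0.25, Col5a3 0.17 and the Dcn probe ILMN_1254458 -0.19. Lox was 0.38 without rosiglitazone replicate 3 and Col1a2 0.34 without untreated replicate 3.

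The replicate numbers were shared by both groups, but same-numbered arrays did not deviate together in every pair (r = 0.045, -0.0057 and 0.35). With the replicate number as a block 475 probes passed, 0 of them members and 2 genes in the related lists, with Podn at adjusted p = 0.062. Signal over background limits Fmod, Omd, Kera, Ecm2 and Epyc, and left Aspn unmeasured. It also limits the Podn probe, the Ogn probe ILMN_2740622 and the Dcn probe ILMN_1254458, though each was detected on all 6 arrays. Their raw intensities were 136 to 338, 107 to 214 and 134 to 297 units, beside 103 to 165 for Omd and 83 to 98 for Aspn.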
